A study of Homo sapiens with 6 samples.

Results

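The genes described here encode secreted proteins that build the extracellular matrix or signal from it, and they are read as part of the mesenchymal matrix output of a triple-negative breast cancer (TNBC) cell line depleted of Sam68. They were chosen by symbol as FN1, SPARC, TNC, THBS1, THBS2, POSTN, TGFBI, VCAN, FBN1 and FBN2. All 10 were found among the 74852 loci of the deposited expression table, each at a locus that carried no other gene. MDA-MB-231, a mesenchymal-like human TNBC line, was transfected in 2 rounds with Lipofectamine RNAiMAX, and the cells received either a pool of control siRNAs (the si-CTRL group) or 4 pooled siRNAs that target SAM68 (the si-SAM68 group), with 3 sequenced libraries each. The labels place the harvest 24 h after the second round, name DMEM as medium and miRNeasy for extraction, and give a stranded TruSeq mRNA kit, whereas the methods of the study name another medium and extraction kit and count the time to harvest from transfection, without naming a round. The question was whether depletion of this RNA-binding protein altered the transcripts of matrix proteins in a cell that invades matrix. The methods say that the cells were harvested in triplicate, but nothing says that the 3 libraries of a group came from separate cultures, so p-values measure only the spread between these libraries, which may be technical.

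Fibronectin, encoded by FN1, is assembled by cells into fibrils through integrins, and the fibrillins FBN1 and FBN2 form the microfibrils that carry elastic fibres and store latent TGF-beta. Matricellular proteins such as SPARC, tenascin-C (TNC), the thrombospondins (THBS1 and THBS2) and periostin (POSTN) add little structure and instead modulate adhesion, proteases and growth factors. TGFBI is an adhesive protein induced by TGF-beta, and versican (VCAN) is a large proteoglycan that binds hyaluronan. Tumors with many fibroblasts often hold much of these proteins, and in invasive breast cancer they are made by stromal cells as well as by mesenchymal-like tumor cells.

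Values are normalized read counts, the reads on a locus divided by the size factor of the library. Every library could be turned back into whole reads, and the totals were 52625492, 67124351 and 69355385 reads in the si-CTRL libraries (replicates 1 to 3) and 65473122, 82568487 and 59488569 reads in the si-SAM68 libraries. Among the libraries, si-SAM68 replicate 2 stood apart, since the locus of the rRNA precursor held 15.1% of its reads against 1.83% to 3.17% elsewhere. A chi-square per degree of freedom between its reads and those of the other si-SAM68 libraries was 390 and 393, against 20.7 between those 2. The rRNA locus is part of that chi-square, so these values partly restate its share of reads. They were not computed without that locus, and so do not show how far the other loci differed. By the same chi-square, si-CTRL replicate 1 stood apart in its group (76.7 and 81.1, against 12.7 between the other 2). Of its reads, 3.70% were on loci without a symbol, against 2.59% to 2.79% elsewhere. For each tested matrix gene, the log2 fold changes without si-SAM68 replicate 2 and without si-CTRL replicate 1 are therefore also given.

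The silenced gene, KHDRBS1, was examined before the matrix genes. The siRNAs of the pools are shown because they define the perturbation, with capitals on bases 12 to 18 of the sense strand, the target letters that pair with the seed (bases 2 to 8) of the guide strand.
siCTRL_1: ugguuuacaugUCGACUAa
siCTRL_2: ugguuuacaugUUGUGUGa
siCTRL_3: ugguuuacaugUUUUCUGa
siCTRL_4: ugguuuacaugUUUUCCUa
siSAM68_1: gcacccauaugGACGUUAu
siSAM68_2: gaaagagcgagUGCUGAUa
siSAM68_3: uaugauggaugAUAUCUGu
siSAM68_4: aaagaucucugUAUUGGGa
In GENCODE release 29, KHDRBS1 held a full match to each of the 4 SAM68 siRNAs within its coding sequence, from coding base 468 for siSAM68_2, 579 for siSAM68_4, 774 for siSAM68_3 and 1311 for siSAM68_1. None of the 4 control siRNAs matched that transcript. The 7 capital letters of the SAM68 siRNAs were absent from the annotated 3'UTRs of 9 of the 10 matrix genes, the exception being VCAN, which held those of siSAM68_3. Among the control siRNAs, those of siCTRL_2 were in THBS1, those of siCTRL_3 in THBS1, THBS2, POSTN, VCAN and FBN2, and those of siCTRL_4 in THBS1, VCAN, FBN1 and FBN2. Over the 19046 genes with a 3'UTR, the letters of siCTRL_1 to siCTRL_4 were in 0.541%, 18.2%, 29.4% and 30.9%, and those of siSAM68_1 to siSAM68_4 in 1.27%, 12.0%, 11.5% and 7.79%. Such matches describe the sequence, and their part in any value was not tested.

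KHDRBS1 had normalized read counts of 15660, 14483 and 14737 in the si-CTRL libraries (replicates 1 to 3), and of 583, 602 and 670 in the si-SAM68 libraries. Every si-SAM68 library was thus far below every si-CTRL library, with 4.13% of the control mean left. The log2 fold change was -4.60 with a standard error of 0.083 (limma, adjusted p = 2.13e-09).

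Of the 10 matrix genes, 8 reached a mean of 10 across the 6 libraries and were tested, while POSTN and VCAN were nearly without reads. POSTN was at 0 in 4 libraries, with 1.94 in si-CTRL replicate 2 and 2.01 in si-SAM68 replicate 1, which are 2 reads each. VCAN was at 0 in 5 libraries and at 2.23 in si-SAM68 replicate 3, again from 2 reads. Both lay under the 3 reads that a count of 0 still allows in a library, a floor of 2.76 to 3.75 normalized read counts, so that neither gene gives a fold change. The 10 genes together made up 0.503% to 0.628% of all reads, and 0.519% to 0.639% when reads on the rRNA locus were left out. That omission moved si-SAM68 replicate 2 from 0.534% to 0.629%.

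Among these 10 genes, FN1, SPARC and TNC held most of the reads, though a collagen gene outside them, COL1A1, was higher per kb (23823 in si-CTRL). Their share of the summed normalized read counts of the 10 genes was 89.7% ± 0.815 with control siRNAs and 90.7% ± 0.248 after SAM68 silencing (SD, n = 3). Within it, the share of FN1 was 44.8%, 48.1% and 44.3% in the si-CTRL libraries and 49.9%, 51.3% and 49.7% in the si-SAM68 libraries, and that of TNC was 26.8%, 24.3% and 27.6% against 21.7%, 23.4% and 23.9%. The groups did not overlap in either, nor in the share of THBS1 (3.04% to 3.55% against 2.90% to 3.01%). For the other 5 tested genes the shares overlapped, and parts of a common sum depend on each other. In levels, the groups overlapped for 8 of 8 genes. They did not overlap in level for 33.9% of all loci, which is no background for such shares. Levels of different genes were compared per kb of the longest protein-coding transcript. On that scale the si-CTRL mean was 18814 ± 2163 (SD, n = 3) for FN1, 17688 ± 3166 for SPARC and 12579.6 ± 1662 for TNC, in normalized read counts per kb. FN1 and SPARC overlapped between their libraries (16481 to 20751 and 15724 to 21341 in si-CTRL), whereas the highest TNC value, 14464, was below both. TGFBI followed at 4465 ± 603, then THBS1 at 1574 ± 76.9, FBN1 at 744 ± 58.0, FBN2 at 275 ± 60.3 and THBS2 at 156 ± 9.91, again per kb in si-CTRL. The control ranges of neighbours in this lower part of the order did not overlap. The order at the top depended on the length used: per kb of all annotated exons joined, SPARC (13551) was above TNC (9975) and FN1 (9676). By the longest transcript and the mean of all 6 libraries, FN1 was at position 145, SPARC at 169 and TNC at 270 among 14419 genes with a length and a value above 0.

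**Figure D1:**
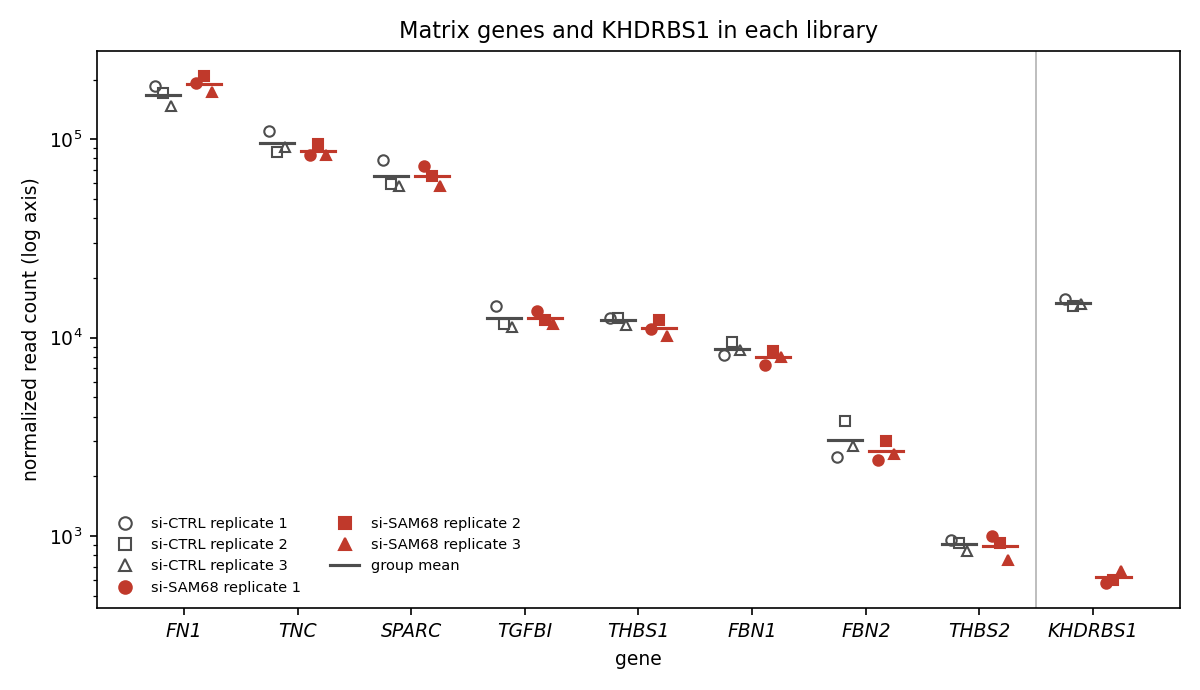
Normalized read counts (log axis) of the 8 tested matrix genes and of KHDRBS1 in each library, open dark symbols for si-CTRL and filled red symbols for si-SAM68, with the symbol giving the replicate number and bars the group means. The groups overlap for each of the 8 matrix genes, while KHDRBS1 falls from at least 14483 to at most 670.

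In si-SAM68 vs. si-CTRL cells, no transcript of the 8 tested matrix genes passed a threshold for regulation. The log2 fold changes lay between -0.18 (FBN2) and 0.19 (FN1). In the main fit, which ignored the replicate numbers, their 95% intervals, converted to fold changes, reached from 0.703 (FBN2) to 1.35 (FN1). Each of these intervals thus excluded the 1.5-fold change the study required in either direction. limma gave 0 of 8 an adjusted p under 0.05, against 10.7% of the 18849 loci tested, of which 4.47% were higher and 6.23% lower in si-SAM68. At an unadjusted p under 0.05 the count was also 0 of 8, against 27.0% of all loci, and by the thresholds of the study, whose p is taken here as unadjusted although the methods do not say so (p up to 0.05 together with a change of 1.5-fold or more) it was 0 of 8, against 7.67%. The groups overlapped for 8 of 8 genes, whereas they did not overlap for 33.9% of all loci. edgeR and DESeq2 on the recovered reads called 0 of 8 as well, also at an unadjusted p under 0.05. With the replicate number as a block, limma had 0 and edgeR had 1 of 8 at an unadjusted p under 0.05, which was FN1. Without si-CTRL replicate 1, limma gave 3 of 8 an unadjusted p under 0.05 (FN1, FBN1 and FBN2), against 29.3% of all loci, and 0 of 8 an adjusted p under 0.05. A p-value that misses a threshold does not show equal levels, and the intervals give the size of change that these libraries still allow.

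The median log2 fold change of the 8 genes was -0.08, with 3 higher and 5 lower, beside a median of 0.01 over all loci tested. In absolute size the median was 0.13, against 0.19 over all loci and 0.15 over 9936 loci whose mean reached 500. The spread within a group, as an SD on the log2 scale, had a median of 0.15 for the matrix genes, 0.16 for all loci and 0.11 for those abundant loci. Summed over the 10 genes, the level was 366600 ± 41827.9 normalized reads (SD, n = 3) with control siRNAs and 378493 ± 29787.6 (SD, n = 3) after SAM68 silencing. The si-SAM68 mean was 103% of the control mean, a difference well within the spread between libraries (two-sided exact permutation test, p = 0.8).

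**Figure D2:**
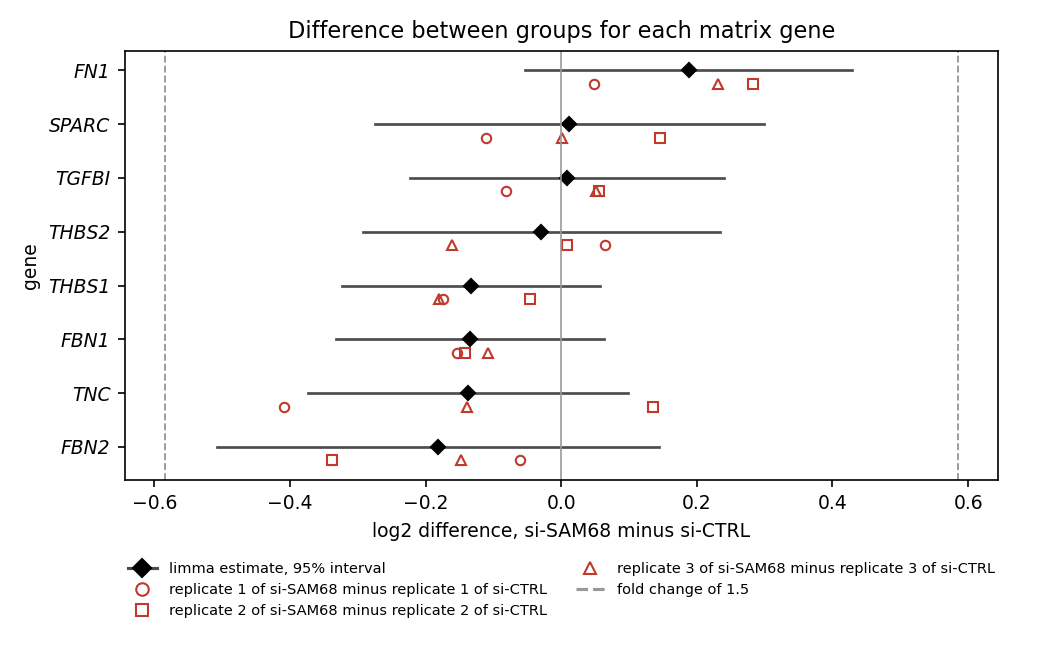
Difference between si-SAM68 and si-CTRL on the log2 scale for each tested matrix gene, with the limma estimate and its 95% interval (black) and the differences between libraries of the same replicate number (red), and dashed lines at a fold change of 1.5. Every interval includes 0 and lies inside the dashed lines, and FN1 is the only gene of the 8 whose red symbols are all above 0.

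Among the fibrillar genes, FN1 (chromosome 2, 216225164 to 216300796, hg19) had the highest count of the matrix genes in every library. Its normalized read counts were 184791, 171068 and 146763 in the si-CTRL libraries (replicates 1 to 3) and 191164, 208215 and 172212 in the si-SAM68 libraries. The highest values were those of si-SAM68 replicates 2 and 1, but si-SAM68 replicate 3 was below si-CTRL replicate 1, so the groups overlapped. The si-SAM68 mean was 114% of the control mean, and the log2 fold change was 0.19 with a standard error of 0.108 and a 95% interval from -0.05 to 0.43 (limma, adjusted p = 0.298). FN1 was higher in si-SAM68 in 3 of 3 comparisons between libraries of the same number, by 0.05, 0.28 and 0.23 on the log2 scale (two-sided exact permutation test on the counts without pairing, p = 0.2, where 3 libraries against 3 cannot give less than 0.1). Its estimate depended on single libraries: omitting si-SAM68 replicate 2 gave 0.12, omitting si-CTRL replicate 3 gave 0.10 and omitting si-CTRL replicate 1 gave 0.26, the last with the lowest adjusted p of any alternative (limma, adjusted p = 0.0909, in a range up to 0.641). FN1 makes several splice forms, and the table holds a value per gene only.

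FBN1 (chromosome 15, 48700503 to 48937985), the fibrillin of adult microfibrils, had 8131, 9479 and 8624 normalized read counts in si-CTRL and 7307, 8591 and 8002 in si-SAM68 replicates 1, 2 and 3. In each group replicate 2 was the highest and replicate 1 the lowest, and the groups overlapped. The log2 fold change was -0.13 with a standard error of 0.089 (limma, adjusted p = 0.361). With a library omitted it ranged from -0.19 (si-SAM68 replicate 2) to -0.07 (si-SAM68 replicate 1), and omitting si-CTRL replicate 1 gave -0.19 (limma, adjusted p = 0.137). Within replicate numbers FBN1 was lower in 3 of 3, by similar amounts of -0.15, -0.14 and -0.11 on the log2 scale. For FBN1 as for the other matrix genes, no share over all loci is given beside such counts of 3 of 3, so they are description only.

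FBN2 (chromosome 5, 127593601 to 127994878), a fibrillin best known from developing tissue, had 2516, 3811 and 2857 normalized read counts in si-CTRL and 2413, 3015 and 2578 in si-SAM68 replicates 1, 2 and 3. Again replicate 2 was the highest of each group, and the si-CTRL value there was 1.58 times the lowest of all libraries. FBN2 had the widest interval of the 8 genes, with a log2 fold change of -0.18, a standard error of 0.146 and bounds of -0.51 and 0.14 (limma, adjusted p = 0.459). Without si-CTRL replicate 2 the estimate was -0.01 (limma, adjusted p = 0.957), and without si-CTRL replicate 1 it was -0.31 (limma, adjusted p = 0.111). Omitting si-SAM68 replicate 1 gave -0.11 and omitting si-SAM68 replicate 2 gave -0.27. FBN2 was lower in si-SAM68 in 3 of 3 comparisons within replicate numbers, by -0.06, -0.34 and -0.15 on the log2 scale, and with the replicate number as a block the standard error was 0.085 (limma, adjusted p = 0.212).

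Of the matricellular genes, TNC (chromosome 9, 117781850 to 117880536) encodes a glycoprotein that loosens the adhesion of cells to fibronectin. Its normalized read counts were 110519, 86505 and 91337 in si-CTRL and 83283, 95033 and 82917 in si-SAM68 replicates 1, 2 and 3. The highest value was that of si-CTRL replicate 1 and the lowest that of si-SAM68 replicate 3, with the groups overlapping between. The log2 fold change was -0.14 with a standard error of 0.106 (limma, adjusted p = 0.439). Within replicate numbers the differences had no common sign, at -0.41, 0.14 and -0.14 on the log2 scale. Omitting si-CTRL replicate 1 gave -0.03, and omitting si-SAM68 replicate 2 gave -0.20.

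SPARC (chromosome 5, 151040661 to 151066615), a collagen-binding protein, had 78983, 59215 and 58195 normalized read counts in si-CTRL and 73117, 65493 and 58269 in si-SAM68 replicates 1, 2 and 3. Replicate 1 was the highest and replicate 3 the lowest of each group, and the group means differed by far less than the libraries within a group (65464 ± 11718.9 and 65627 ± 7425, SD, n = 3). The log2 fold change was 0.01 with a 95% interval from -0.27 to 0.30 (limma, adjusted p = 0.965). Its sign turned under quantile normalization and in 3 of 6 fits with a library left out. Omitting si-SAM68 replicate 2 gave 0.01 and omitting si-CTRL replicate 1 gave 0.15.

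The thrombospondins bind calcium, cell-surface receptors and proteases, and THBS1 can activate latent TGF-beta. THBS1 (chromosome 15, 39873279 to 39891117) had 12535, 12634 and 11552 normalized read counts in si-CTRL and 11112, 12232 and 10194 in si-SAM68 replicates 1, 2 and 3. It was lower in si-SAM68 in 3 of 3 comparisons within replicate numbers, yet si-SAM68 replicate 2 lay above si-CTRL replicate 3. The log2 fold change was -0.13 with a standard error of 0.085, the smallest of the 8 genes (limma, adjusted p = 0.345). With a library omitted it ranged from -0.20 (si-SAM68 replicate 2) to -0.07 (si-SAM68 replicate 3), and omitting si-CTRL replicate 1 gave -0.12. THBS2 (chromosome 6, 169615876 to 169654209) was the least abundant tested gene, with 957, 919 and 844 in si-CTRL and 1001, 924 and 755 in si-SAM68 replicates 1, 2 and 3. The si-SAM68 libraries of THBS2 held both the highest and the lowest value, and the log2 fold change was -0.03 with a 95% interval from -0.29 to 0.23 (limma, adjusted p = 0.904). Its sign turned when si-CTRL replicate 1 was left out (0.01) and when si-SAM68 replicate 3 was (0.09), and the value was -0.06 when si-SAM68 replicate 2 was.

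TGFBI (chromosome 5, 135364584 to 135399507), an integrin-binding protein related to periostin, had 14457, 11761 and 11344 normalized read counts in si-CTRL and 13670, 12224 and 11753 in si-SAM68 replicates 1, 2 and 3. Replicate 1 was the highest of each group, and the si-SAM68 values lay inside the range of the si-CTRL values. The log2 fold change was 0.01 with a standard error of 0.104 (limma, adjusted p = 0.970), and its sign turned under quantile normalization and in 3 of 6 fits with a library left out, while omitting si-SAM68 replicate 2 gave 0.03 and omitting si-CTRL replicate 1 gave 0.12.

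Libraries of the same group also differed from each other. Of the 8 tested genes, si-CTRL replicate 1 held the highest value for 3 (SPARC, TNC and TGFBI) and si-CTRL replicate 2 for 3 (THBS1, FBN1 and FBN2), while the lowest value was in a si-SAM68 library for 5. SPARC and TGFBI ordered the 6 libraries identically. Over these libraries their log2 values had a Pearson r of 0.985 (exact permutation p = 0.0014, adjusted over the 28 gene pairs 0.0389). Their Spearman rho was 1 (exact permutation p = 0.0028, adjusted 0.0778), where 0.0028 is the smallest p that this test of ranks allows over 6 libraries. Without the 2 libraries farthest from the SPARC median, r was 0.870 over 4 libraries. FBN1 and FBN2 were the other pair with r above 0.9, at 0.931 (exact permutation p = 0.0111, adjusted over the 28 pairs 0.156). Their r was 0.913 without the 2 libraries farthest from the FBN1 median. Their rho was 0.886 (exact permutation p = 0.0333, adjusted 0.233), the same as for SPARC with THBS2 and for THBS2 with TGFBI. These permutations treat the 6 libraries as exchangeable and ignore that libraries share a group and a replicate number, so the p-values are descriptive. Each pair with r above 0.9 was singled out after its values were seen, and 9 of the 28 pairs had an r below 0. SPARC, TGFBI and FBN2 lie on chromosome 5 and FBN1 on chromosome 15.

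**Figure D3:**
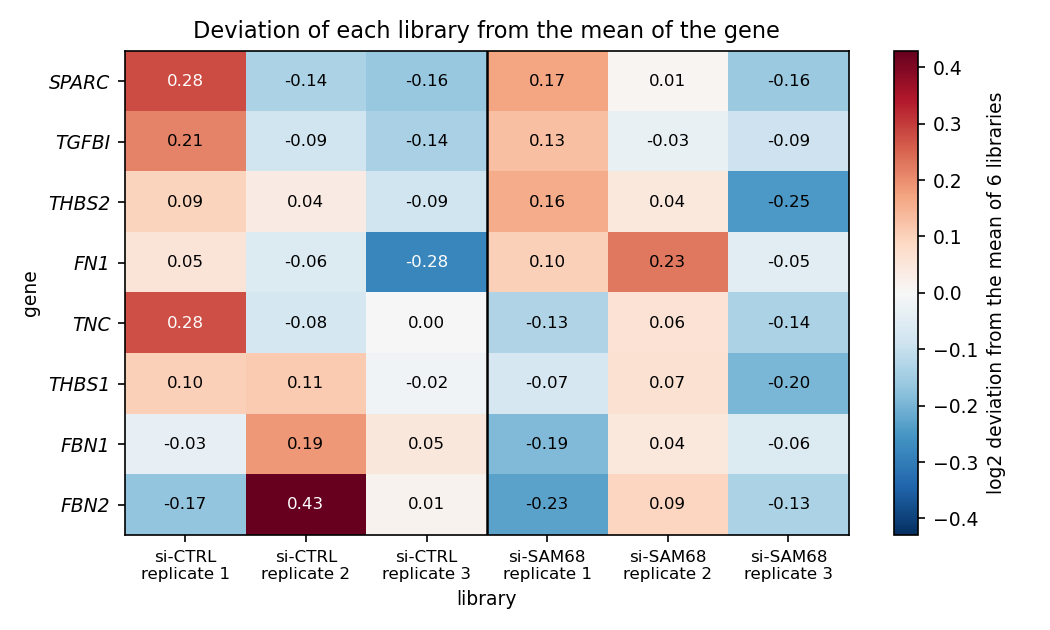
Log2 deviation of each library from the mean of the 6 libraries, for the 8 tested matrix genes (red above, blue below the mean). SPARC and TGFBI are highest in replicate 1 of each group (0.28 and 0.21 in si-CTRL), FBN1 and FBN2 in replicate 2 of each group (0.19 and 0.43 in si-CTRL), and no gene separates the groups.

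The promoters of the pairs SPARC with TGFBI and FBN1 with FBN2 are shown because these were the pairs with r above 0.9. Such an r was not particular to a pair, since FBN1 had it with 31 of 12927 loci, and shared regulation was not tested. All 10 genes were matched to a RefSeq promoter (GRCh38.p14), which covers 250 bases before to 50 after the start, and capitals mark GC boxes (GGGCGG on either strand). The windows are chr5:151686866-151687165 on the minus strand for SPARC, chr5:136028738-136029037 on the plus strand for TGFBI, chr15:48644921-48645220 on the minus strand for FBN1 and chr5:128538196-128538495 on the minus strand for FBN2.
SPARC: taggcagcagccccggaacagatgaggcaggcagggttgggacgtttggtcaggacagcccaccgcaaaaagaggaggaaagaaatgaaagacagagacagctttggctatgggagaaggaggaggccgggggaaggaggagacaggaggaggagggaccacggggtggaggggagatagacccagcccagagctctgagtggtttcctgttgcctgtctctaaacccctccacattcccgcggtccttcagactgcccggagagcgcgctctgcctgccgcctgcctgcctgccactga
TGFBI: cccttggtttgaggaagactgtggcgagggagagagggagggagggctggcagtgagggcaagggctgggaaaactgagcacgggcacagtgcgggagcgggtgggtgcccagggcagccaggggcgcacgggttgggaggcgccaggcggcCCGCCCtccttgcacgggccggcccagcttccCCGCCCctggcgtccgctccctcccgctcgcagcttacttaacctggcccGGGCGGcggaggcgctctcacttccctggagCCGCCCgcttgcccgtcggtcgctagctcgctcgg
FBN1: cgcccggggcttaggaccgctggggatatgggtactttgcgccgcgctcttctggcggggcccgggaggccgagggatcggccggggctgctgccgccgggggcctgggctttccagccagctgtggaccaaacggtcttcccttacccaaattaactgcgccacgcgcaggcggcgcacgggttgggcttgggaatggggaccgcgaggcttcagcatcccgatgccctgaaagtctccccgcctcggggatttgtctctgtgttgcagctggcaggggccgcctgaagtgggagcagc
FBN2: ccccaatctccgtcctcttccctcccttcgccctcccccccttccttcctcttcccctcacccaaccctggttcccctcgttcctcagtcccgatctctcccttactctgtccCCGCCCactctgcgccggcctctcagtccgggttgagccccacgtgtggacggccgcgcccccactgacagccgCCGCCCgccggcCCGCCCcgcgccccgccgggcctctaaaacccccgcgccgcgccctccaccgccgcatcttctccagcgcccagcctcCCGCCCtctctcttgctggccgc
TGFBI and FBN2 each held 4 GC boxes, a motif found in 45.0% of 35116 promoters of this length, while SPARC and FBN1 held 0, so that within each pair only 1 promoter had these letters. None of these 4 windows held a TATA box (TATAAA, in 11.5% of promoters), an AP-1 site (TGACTCA, in 4.95%) or a cyclic AMP response element (TGACGTCA, in 1.85%), all searched on both strands. Among the other matrix genes, FN1 had 6 GC boxes, some of them overlapping, and the only cyclic AMP response element of the 10, and THBS2 and POSTN had TATA boxes. The CpG count was highest in FN1 (38) and lowest in POSTN (3), beside a median of 14 over all promoters. No match says only that these letters are not in this window, and a match says nothing about the factors that bind there.

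The loci most like a matrix gene over the 6 libraries were taken for the 3 genes with the smallest unadjusted p, among 12927 loci with a symbol and a mean of at least 50. For FN1 they were CMTR1, PIP4K2B and NFIC, with Pearson r of 0.980, 0.977 and 0.974. For THBS1 they were PIK3CD, RGS9BP and GPC6 (0.984, 0.983 and 0.975), and for FBN1 they were CLDN23, SRRD and ZNF790 (0.990, 0.981 and 0.977). These are the highest of 12927 values per gene over 6 libraries that share their normalization, with 75, 43 and 31 loci above 0.9, and they describe likeness only.

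Around the matrix genes, 7 lists of receptors, partners and enzymes held 119 genes, of which 94 were tested. limma called 5 of the 94 higher and 10 lower at an adjusted p under 0.05, where 4.47% and 6.23% of all loci were so called. With a library left out, 2 to 13 were higher and 3 to 11 lower, while 627 to 2834 loci were called in place of 2017. With the replicate number as a block, the list counts were 5 higher and 6 lower, and 1697 of all loci were called in place of 2017. FAM20C, FKBP14, HAS2, NREP and SMOC1 lost the call (limma with the block, adjusted p between 0.0555 and 0.0614) and ITGB8 gained it (limma with the block, adjusted p = 0.0463). TGM2, FURIN, HAS3 and TGFBR3 kept an adjusted p under 0.05 in every one of the 18 alternatives that gave them a value. The other 11 lost it without at least 1 library.

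Of 20 matrix receptors, 17 were tested, 2 were lower, 0 were higher and 15 were not called, with a median log2 fold change of 0.06. ITGB1, the beta chain shared by most matrix integrins and the most abundant of the list, had 154796 ± 10919.9 in si-CTRL cells and 158251 ± 4724 after silencing (SD, n = 3, as for the genes below), a log2 fold change of 0.03 (limma, adjusted p = 0.833). The ITGB1 locus also carries SNORA86 and the ITGB3 locus EFCAB13, so that these values are not of 1 gene alone. ITGB3, a chain of receptors for fibronectin and thrombospondin, fell from 2185 ± 94.5 to 1613 ± 94.1, a log2 fold change of -0.44 (limma, adjusted p = 0.0113), with an adjusted p of 0.0625 by limma without si-SAM68 replicate 3. ITGA9, a receptor chain for tenascin-C, fell from 24.8 ± 1.98 to 6.23 ± 4.62 (limma, log2 fold change -2.05, adjusted p = 0.0333). It is a gene with few reads that was called in 2 of the 6 fits without a library, with adjusted p up to 0.0899 by limma without si-CTRL replicate 3.

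Of 20 other matricellular genes, 15 were tested, with 1 higher, 1 lower, 13 not called and a median log2 fold change of 0.09. CYR61, an integrin ligand and the most abundant of them, had 16380 ± 2273 and 18849 ± 618, a log2 fold change of 0.21 (limma, adjusted p = 0.201). WISP2, a member of the CYR61 family, rose from 11.7 ± 6.99 to 46.0 ± 16.0, a log2 fold change of 1.98 from few reads (limma, adjusted p = 0.0199). It was called in 4 of the 6 fits without a library, with adjusted p up to 0.0916 by limma without si-SAM68 replicate 1. SMOC1, a calcium-binding relative of SPARC, fell from 4438 ± 1039 to 2944 ± 216, a log2 fold change of -0.57 (limma, adjusted p = 0.0404). The call of SMOC1 was lost in 4 of 6 fits without a library, with an adjusted p of up to 0.156 by limma without si-SAM68 replicate 3.

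Of 17 microfibril and elastic fibre genes, 13 were tested, with 0 higher, 1 lower, 12 not called and a median log2 fold change of -0.13. LTBP2, a protein that binds fibrillin microfibrils, fell from 9413 ± 303 to 7536 ± 495, a log2 fold change of -0.32 (limma, adjusted p = 0.0272). It was called in 1 of the 6 fits without a library, with adjusted p up to 0.115 by limma without si-SAM68 replicate 3. EFEMP1, a fibulin and the most abundant of the list, had 9973.5 ± 1071 and 9111 ± 561, a log2 fold change of -0.13 (limma, adjusted p = 0.410).

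Of 17 genes for crosslinking and folding of matrix proteins, 16 were tested, with 2 higher, 2 lower, 12 not called and a median log2 fold change of 0.02. TGM2, a transglutaminase that crosslinks fibronectin, had 15555, 13018 and 13169 normalized read counts in si-CTRL and 6796, 7382 and 6776 in si-SAM68 replicates 1, 2 and 3. All si-SAM68 libraries were below all si-CTRL libraries, at 50.2% of the control mean, with a log2 fold change of -0.99 and a standard error of 0.088 (limma, adjusted p = 0.000307). FAM20C, a kinase of secreted proteins, fell with a log2 fold change of -0.37 (limma, adjusted p = 0.0447). The collagen hydroxylase subunit P4HA1 and the chaperone FKBP14 rose, with log2 fold changes of 0.33 and 0.28 (limma, adjusted p = 0.0226 and 0.0455). Without si-SAM68 replicate 3 the adjusted p by limma was 0.174 for FAM20C, 0.104 for P4HA1 and 0.176 for FKBP14. Of the 6 fits without a library, 2 called FAM20C, 1 called P4HA1 and 1 called FKBP14. P4HB, the most abundant of the list, had a log2 fold change of -0.06 (limma, adjusted p = 0.778).

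Of 16 hyaluronan and proteoglycan genes, 7 were tested, with 1 higher, 1 lower, 5 not called and a median log2 fold change of -0.11. The hyaluronan synthase HAS3 had 391, 504 and 493 normalized read counts in si-CTRL and 945, 908 and 772 in si-SAM68 replicates 1, 2 and 3, all higher than in si-CTRL (log2 fold change 0.92, standard error 0.129, limma, adjusted p = 0.00271). Its paralog HAS2 went the other way, from 427 ± 91.1 to 272 ± 24.8, a log2 fold change of -0.63 (limma, adjusted p = 0.0358), and lost the call in 4 of 6 fits without a library, with adjusted p up to 0.120 by limma without si-SAM68 replicate 1. CD44, the hyaluronan receptor, which is also in the receptor list, was the most abundant, with 54108 ± 12921 and 59966 ± 3420 and a log2 fold change of 0.17 (limma, adjusted p = 0.476).

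Of 16 proteases that cut these proteins, 14 were tested, with 0 higher, 2 lower, 12 not called and a median log2 fold change of -0.26. FURIN, the convertase that processes fibrillins and other precursors, had 6257, 4953 and 5276 normalized read counts in si-CTRL and 3094, 3106 and 2859 in si-SAM68 replicates 1, 2 and 3, with no overlap (log2 fold change -0.86, standard error 0.097, limma, adjusted p = 0.00101). The collagenase MMP1 fell from 573 ± 187 to 244 ± 47.1, a log2 fold change of -1.18 (limma, adjusted p = 0.0163). It was called in 3 of the 6 fits without a library, with adjusted p up to 0.0739 by limma without si-SAM68 replicate 1. The membrane protease MMP14, the most abundant of the list, had a log2 fold change of -0.14 (limma, adjusted p = 0.488).

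Of 14 TGF-beta genes, 13 were tested, with 1 higher, 1 lower, 11 not called and a median log2 fold change of 0.04. The co-receptor TGFBR3 had 3824, 3661 and 3445 normalized read counts in si-CTRL and 5246, 5551 and 4951 in si-SAM68 replicates 1, 2 and 3, without overlap (log2 fold change 0.53, standard error 0.079, limma, adjusted p = 0.00394). NREP fell from 5446 ± 340.0 to 4427 ± 198, a log2 fold change of -0.30 (limma, adjusted p = 0.0404). It was called in 2 of the 6 fits without a library, with adjusted p up to 0.158 by limma without si-SAM68 replicate 2.

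**Figure D4:**
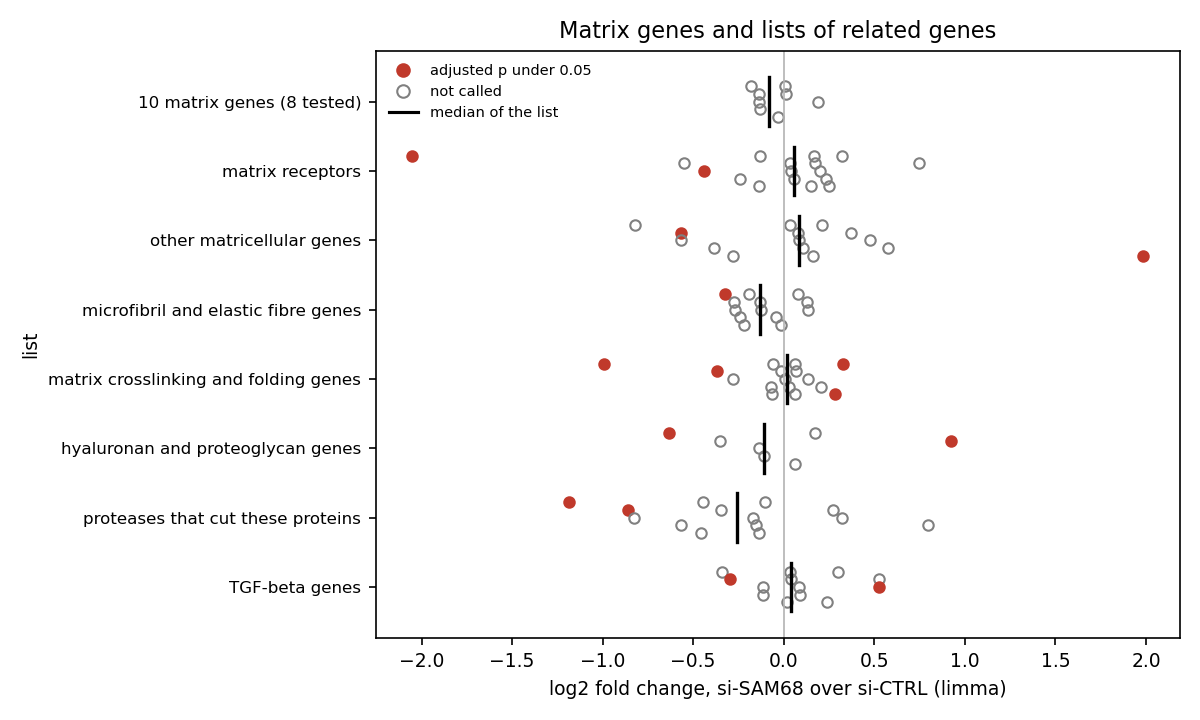
Log2 fold change (limma, si-SAM68 over si-CTRL) of every tested gene of the matrix group and of the 7 lists, with genes at an adjusted p under 0.05 filled red, others open, and a bar at the median of each list. The 8 tested matrix genes have no filled symbol, and the extremes of the lists are ITGA9 (-2.05) and WISP2 (1.98), both with few reads.

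Markers were read to see which cells the libraries held. Of 6 genes that mark MDA-MB-231, all were tested, and their sum in si-CTRL replicates 1, 2 and 3 was 429220, 372560 and 360930, against 416950, 417210 and 408280 in si-SAM68, with VIM as the most abundant and 1 gene called higher (CAV1, log2 fold change 0.62, limma, adjusted p = 0.00101). Of 5 genes expected to be low, ESR1, PGR, CDH1 and EPCAM were at most 15.2 in any library, and only ERBB2 was tested, at 2413 to 3447 and with 0 calls, on a locus shared with MIR4728. The fibroblast genes DCN and LUM, which many fibroblasts of stroma express, were at most 4.47 in any library, whereas COL1A1, the most abundant of the 10 fibroblast markers, had 138281 to 181387. The sum of those 10 was 165470, 191250 and 155720 in si-CTRL and 184320, 164020 and 146400 in si-SAM68 replicates 1, 2 and 3. Of the 8 of them that were tested, THY1 and ACTA2 fell (log2 fold changes -0.70 and -0.70, limma, adjusted p = 0.00288 and 0.0183) and 6 were not called. Over all loci tested, 4.47% were called higher and 6.23% lower. Of 5 endothelial genes, KDR and TEK were at 0 in every library, and CDH5 was the most abundant. The sum of the 5 in si-CTRL replicates 1, 2 and 3 was 76.2, 52.3 and 49.4, against 32.2, 31.3 and 35.7 in si-SAM68. Of the 3 tested, 0 were called. The 6 blood genes summed to at most 19.4 in a library, with PTPRC the most abundant and none tested.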

How the data were processed

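RNA-seq of 6 libraries was used, 3 of si-CTRL and 3 of si-SAM68 cells. What the authors deposited is a signal: reads per FAST DB locus (hg19) over a DESeq2 size factor. The processing notes of the submitters name STAR 2.4.0, FastQC, Picard and SAMtools; the counting program and its use of strand are not given in the sources used here, so paralogs and overlapping loci can share reads. When each library was divided by its own step, 100% of its values became whole (within 0.01 for loci of 100 to 5000 reads), and these are used as reads. For si-SAM68 replicate 1 that step, 1.01, is close to 1, but with a step of 1 only 2.05% of those loci were whole.

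limma 3.58.1 in R 4.3.3 (eBayes with a trend) was fitted to log2(normalized read count + 1), a scale that understates changes of genes with few reads, for the 18849 loci whose mean reached 10, with Benjamini-Hochberg adjustment. Alternatives were pseudocounts of 0.1 and 5, no filter, a minimum mean of 50, TMM scaling, quantile normalization, no trend, a robust trend, a replicate block, each library left out, a fold change of 2, and edgeR 4.0.16 (also with the block) and DESeq2 1.42.0 on the recovered reads. DESeq2 left 2209 adjusted p-values missing. The limma and edgeR programs were tested on simulated data; the DESeq2 program was not.

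Replicate numbers come from the labels. Deviations from the group means correlated at 0.105, 0.231 and 0.125 between libraries of the same number, over 0.1 in each. The numbers were therefore taken as a possible pairing. It was used only for the differences within replicate numbers and for the fits with the replicate block. The main limma fit, its standard errors, intervals and p-values, and the permutation tests between groups ignored it.

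Named genes are the 10 matrix genes, KHDRBS1, up to 4 genes per list with the largest change at an adjusted p under 0.05, the most abundant of each list except the TGF-beta list, and the 3 loci most correlated with the 3 matrix genes of smallest p. Markers were listed apart. ITGB8 and the single markers picked out by name were added after their values were seen. The matrix genes and the lists were chosen with earlier results of these data known. Transcript lengths and siRNA matches are from GENCODE release 29 (GRCh38), used for sequence and not position.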

Additional observations from a re-analysis of the deposited data

How the results depend on the processing

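Under the 18 alternatives to the fit, 0 of 8 matrix genes had an adjusted p under 0.05 (limma, edgeR or DESeq2), and 0 of 8 passed the thresholds of the study. At a fold change of 2 the count was 0 as well, which the 0 at 1.5-fold had fixed in advance. At an unadjusted p under 0.05 the count was 0 in 15 of these alternatives, 1 (FN1) under quantile normalization and in edgeR with the replicate block, and 3 (FN1, FBN1 and FBN2) without si-CTRL replicate 1, where 29.3% of all loci had such a p (27.0% and 27.8% in the other 2). FN1 was higher and TNC, THBS1, FBN1 and FBN2 were lower in si-SAM68 in each of the 18. Quantile normalization turned the log2 fold change of SPARC to -0.036 and that of TGFBI to -0.0104; the cause was not tested. With each library left out in turn, SPARC ranged from -0.0691 to 0.155, TGFBI from -0.0583 to 0.117 and THBS2 from -0.116 to 0.0872. By adjusted p the replicate block changed no call of a matrix gene in limma or edgeR, and FN1 had an adjusted p of 0.215 with it (limma).

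Of the 94 list genes, the 10 called lower became 6 without a filter on low values (1500 loci called), where more loci are tested. Their number was also 6 with the replicate block in limma (1697 loci called) and in edgeR (1722 loci called). Without a trend 2 were higher and 3 lower, and 899 loci were called in place of 2017. DESeq2 called 9 higher and 12 lower, and 2789 loci. With each library left out, 2 to 13 were higher, 3 to 11 lower, and 627 to 2834 loci were called.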
